A study of Mus musculus with 29 samples.

Results

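The genes described here encode 10 proteins that shape chromatin loops and hold enhancers near their promoters: Ctcf, the cohesin subunits Smc1a, Smc3, Rad21, Stag1 and Stag2, the cohesin loader Nipbl, and the contact factors Ldb1, Yy1 and Med1. They were taken by name from the 25239 genes listed in each RNA count table, and all 10 were among the 15383 genes with enough counts to be tested. The values come from 8 RNA-seq libraries of poly(A) RNA from brain tissue of E11.5 mouse embryos, at mid-gestation. The libraries form 4 groups of 2: wild-type midbrain, midbrain of the hs654 knockout, wild-type forebrain and forebrain of the hs267-853 knockout, where each knockout lacks an enhancer. The label hs267-853 joins 2 element numbers, and it was not established here whether 1 element or both were removed. Each library was a pool of several tissue samples, so a value is an average over the pool and over all cells of the dissected piece, and strain and zygosity are not given in the sources used here. The capture Hi-C samples of the study were not analysed here.

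Cohesin is a ring that embraces DNA and extrudes it into loops. Smc1a and Smc3 are its long arms with the ATPase heads, Rad21 closes the ring, and either Stag1 or Stag2 binds Rad21 as the accessory subunit. Nipbl, with its partner Mau2, loads the ring and drives extrusion, and Ctcf, a zinc finger protein, halts it at loop anchors. Yy1, another zinc finger protein, and Ldb1, an adaptor that dimerizes and is carried to DNA by LIM-domain factors, bring distant elements together, and Med1 belongs to Mediator, the complex that passes signals from enhancer-bound factors to RNA polymerase II. All of them act in nearly every cell type, and in people mutations in Nipbl, Smc1a, Smc3 or Rad21 cause Cornelia de Lange syndrome, which affects brain development.

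Library totals ran from 9051632 to 18024406 counts over genes, and the 10 genes had between 1159 and 7340 counts each per library, so counting error alone was 1.17% to 2.94% of a value. The log2 CPM profiles of the 2 libraries of a group had r of 0.986 to 0.990 over genes, a description only, since genes are not independent replicates. All 10 forebrain regional markers were higher and all 10 midbrain regional markers lower in forebrain, past the threshold in the wild-type and in the knockout libraries, and En2 had 0 counts in all 4 forebrain libraries. The pools differed in sex composition. Xist, the RNA of the inactive X, ran from 0.765 CPM in hs654 knockout replicate 2 to 2969 CPM in wild-type forebrain replicate 1, and 4 Y-linked genes summed to 0 to 241 CPM. The Y-linked sums were 0 and 62.5 CPM in wild-type forebrain and 86.2 and 182 CPM in wild-type midbrain. In the knockout libraries they were 81.8 and 141 CPM in forebrain and 105 and 241 CPM in midbrain. The part of sex composition in the tissue differences was not tested. Smc1a and Stag2 lie on the X chromosome.

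In the RefSeq table of GRCm38.p6, Ctcf lies at chr8:105636474-105682922, Rad21 at chr15:51962604-51993538 and Nipbl at chr15:8289824-8465315. Smc3 lies at chr19:53600396-53645831 and Ldb1, on the same chromosome, at chr19:46031525-46048145. Smc1a lies at chrX:152016428-152061973, Stag2 at chrX:42149297-42277186 and Stag1 at chr9:100597709-100958544. Yy1 lies at chr12:108792945-108820148 and Med1 at chr11:98152154-98193313. All 10 are protein-coding genes.

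Promoter windows, 250 bases before to 50 after an annotated start, were at hand for 7 of the 10 genes, 9 windows in all, and not for Rad21, Stag2 and Nipbl. The letters of the YY1 motif, AANATGGC on either strand, occurred in 3 of the 9 windows (33.3%), those of Ctcf, Smc3 and Stag1. Of all 32851 windows in the table, which were not matched to these in CpG content, 6.05% had them. The 3 matches are shown because the protein that reads this motif is itself among the genes described. The stretches of 30 bases read 5′ to 3′ on the plus strand, which is the coding strand of all 3 genes, and capitals mark the match.
Ctcf chr8:105636537-105636566: accgcgccgccGCCATTTTgtgtccgagcc
Smc3 chr19:53600385-53600414: ccgcggccgccGCCATTTTgtttggccaca
Stag1 chr9:100643235-100643264: gagaagctctaAAAATGGCgggcggcaacc
In Ctcf the match begins 10 bases after the annotated transcript start of the window, in Smc3 at the start itself, and in Stag1 at position -202 relative to it. The start used for Ctcf lies 64 bases inside the annotated gene, and that for Smc3 at its first base. The Stag1 window, chr9:100643198-100643497, belongs to an internal start, far inside the gene span chr9:100597709-100958544. The first 2 matches have the same letters and lie on the same strand. A match describes letters and does not show binding.

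Most of the windows were rich in the dinucleotide CpG. The first window of each of the 7 genes had a GC content of 58.3% (Smc1a) to 81.0% (Yy1), above the median of 52.7% over all windows, and 22 to 47 CpG, against a median of 7. Ldb1 had 2 further windows at starts downstream of its first, with 23 and 5 CpG. Its first window, chr19:46045262-46045561 on the minus strand, also lies inside the gene span, which ends at 46048145. So do the window of Yy1, chr12:108793047-108793346, whose gene begins at 108792945, and that of Med1. The Med1 window is chr11:98192857-98193156 on the minus strand, and its gene ends at 98193313. The last 120 bases before the annotated gene are shown for Ctcf, the gene with most CpG in its window, and for Smc3 and Smc1a, which pair in the cohesin ring but differ in this respect. Capitals mark CpG, on the plus strand.
Ctcf chr8:105636354-105636473: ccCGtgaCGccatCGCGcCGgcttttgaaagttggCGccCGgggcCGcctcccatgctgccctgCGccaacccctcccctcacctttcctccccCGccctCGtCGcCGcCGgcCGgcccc
Smc3 chr19:53600276-53600395: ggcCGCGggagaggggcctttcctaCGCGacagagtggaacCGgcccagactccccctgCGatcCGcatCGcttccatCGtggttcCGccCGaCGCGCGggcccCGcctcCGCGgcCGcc
Smc1a chrX:152016308-152016427: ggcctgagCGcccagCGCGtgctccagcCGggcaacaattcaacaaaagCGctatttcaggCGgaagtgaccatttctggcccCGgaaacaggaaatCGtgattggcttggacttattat
The stretch of Smc3 holds 18 CpG, that of Ctcf 15 and that of Smc1a 8. Other letters searched on both strands were those of the TATA box, written TATAAA, and of ETS factors, written CCGGAAGT. They were found in 0 of the 9 windows, against 13.6% and 3.89% of all windows. The CCAAT box was found in 4 against 37.4%, the SP1 letters GGGGCGGGG in 2 against 11.4%, a motif of NRF1 in 1, that of Stag1, against 4.60%, and a short core of the CTCF motif in 1, that of Med1, against 8.61%. The motifs were chosen with the names of the genes in view.

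The 10 genes differed in how far their levels ranged over tissues and genotypes. Between the lowest and the highest of the 8 libraries, Nipbl differed 1.08-fold, Rad21 1.10-fold, Smc1a 1.14-fold and Med1 1.16-fold. Smc3 spanned 1.17-fold, Stag1 1.18-fold, Yy1 1.19-fold, Ctcf 1.22-fold, Stag2 1.23-fold and Ldb1, the widest, 1.33-fold. The median range of the 2605 genes with a mean of at least 100 CPM was 0.30 on the log2 scale. The range of Nipbl was at the 2.19 percentile of those genes, that of Rad21 at the 6.30 percentile, that of Ctcf at the 48.4 percentile, that of Stag2 at the 50.3 percentile and that of Ldb1 at the 71.0 percentile. This is a description of 8 libraries, and CPM, the count relative to the TMM-scaled library size, is not corrected for length, so levels are compared here only within a gene.

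**Figure D1:**
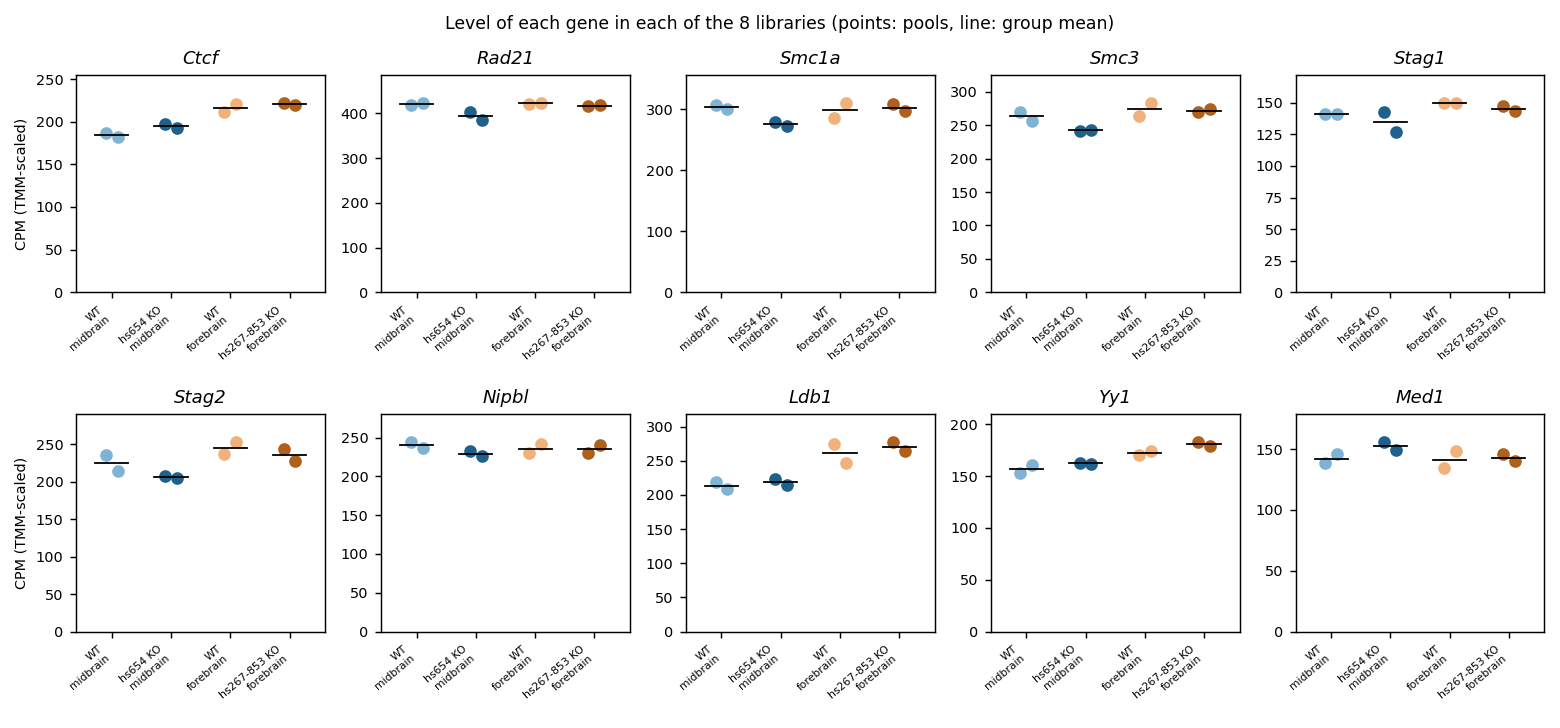
Level of each gene in CPM (vertical axis, starting at 0) in the 8 libraries, with 1 point per pool and a line at the mean of each group of 2; WT is wild type and KO knockout. Ctcf and Ldb1 stand higher in all 4 forebrain libraries than in all 4 midbrain libraries, while Rad21 and Nipbl are nearly level.

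**Figure D2:**
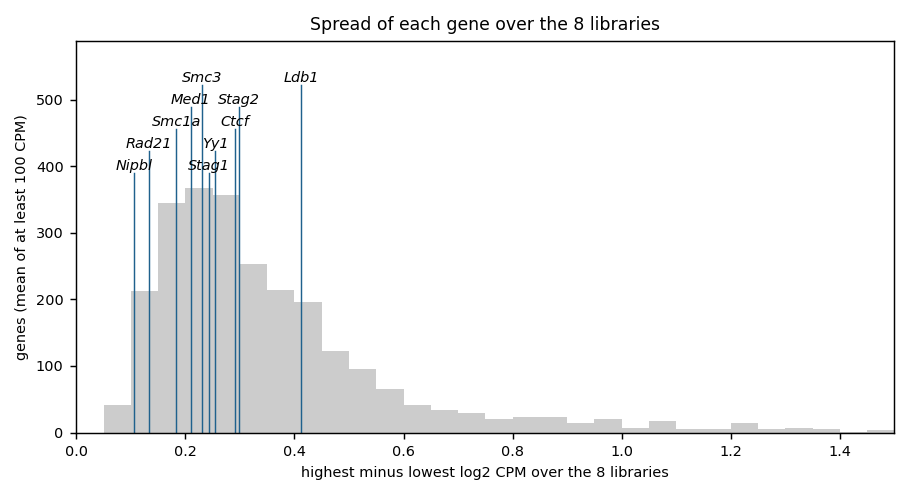
Number of genes (vertical axis) by the range of log2 CPM over the 8 libraries (horizontal axis, shown to 1.5), for the 2605 genes with a mean of at least 100 CPM, with a line for each of the 10 genes. Nipbl and Rad21 lie at the narrow end and Ldb1 right of the median of 0.30.

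Wild-type forebrain was first set against wild-type midbrain. Ctcf and Ldb1 were higher in forebrain, and the other 8 genes did not pass the test. That is 2 of 10, both higher (edgeR quasi-likelihood test, Benjamini-Hochberg adjusted p under 0.05 over 15383 genes). Of all genes tested 29.6% passed, and 14.3% of all genes tested passed with a higher value in forebrain. The median log2 fold change of the 10 was 0.07, beside 0.0012 over all genes tested. The same question was then put to the 4 knockout libraries, which share none with the first comparison, although the deleted enhancer changes together with the tissue there. Both comparisons came from the same fit of all 8 libraries, so they share its estimate of the spread and are not fully independent. In the knockout libraries 4 of 10 passed, Ctcf, Ldb1, Smc3 and Stag2, all higher in forebrain. Of all genes tested 29.4% passed, and 14.6% of all genes tested passed with a higher value in forebrain. The median was 0.14 beside 0.017 for all genes. Ctcf and Ldb1 were the 2 genes past the threshold in both comparisons, as were 21.9% of all genes in the same direction and 10.1% higher in forebrain in both. At an unadjusted p under 0.05 there were 3 of 10 in wild type, where 39.7% of all genes were, and 6 of 10 in the knockout libraries, where 39.5% were. The 2 and 4 called genes lie on either side of the background share.

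**Figure D3:**
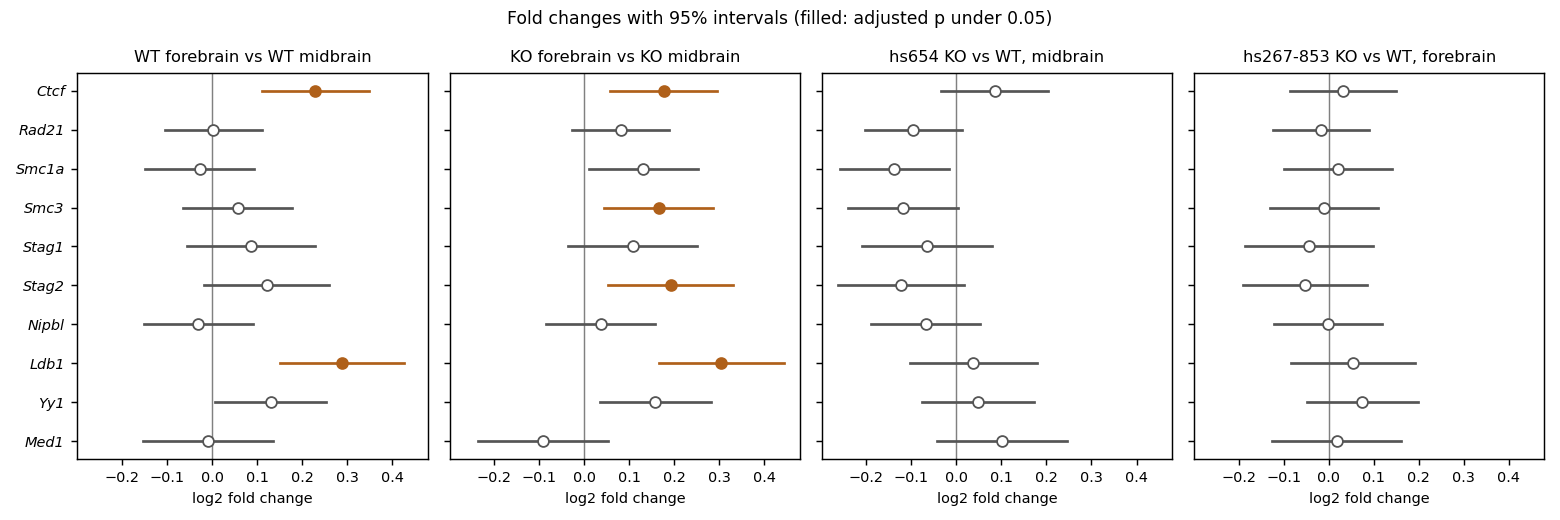
Log2 fold change (horizontal axis) of each gene with its 95% interval in the 2 tissue and the 2 knockout comparisons; filled orange points passed an adjusted p of 0.05. Ctcf and Ldb1 are filled in both tissue panels, Smc3 and Stag2 in the knockout tissue panel, and no point is filled in the knockout panels.

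Among the factors that mark loop anchors and contacts, Ctcf measured 186 and 182 CPM in wild-type midbrain (replicates 1 and 2) and 197 and 193 CPM in hs654 knockout midbrain. It measured 211 and 220 CPM in wild-type forebrain and 222 and 219 CPM in hs267-853 knockout forebrain. All 4 forebrain libraries lay above all 4 midbrain libraries, 218 ± 4.83 CPM against 189.5 ± 6.90 CPM (SD, n = 4). On the log2 scale the forebrain value was higher by 0.23 (SE 0.0547) in wild type, adjusted p 0.00673, and 0.18 (SE 0.0549) in the knockout libraries, adjusted p 0.0277, with edgeR's quasi-likelihood test. That is 1.17-fold higher (95% interval 1.08 to 1.27) and 1.13-fold higher (1.04 to 1.23).

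The call for Ctcf rested on few libraries. In wild type it was lost without wild-type forebrain replicate 2 (log2 fold change 0.20, adjusted p 0.0623), among alternatives whose adjusted p ran from 0.00264 to 1.00. In the knockout libraries it was lost without hs654 knockout replicate 1 (0.143) or 2 (0.162), without hs267-853 knockout replicate 1 (0.0618), with the 4 libraries fitted alone (0.0571), with a mean of at least 50 counts (0.0636) and in DESeq2 (0.0810), in a range of 0.0268 to 1.00.

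Ldb1, the adaptor of LIM-domain complexes, had the largest tissue difference of the 10. It measured 219 and 208 CPM in wild-type midbrain, 224 and 215 CPM in hs654 knockout midbrain, 275 and 247 CPM in wild-type forebrain, and 277 and 265 CPM in hs267-853 knockout forebrain. Again no forebrain library reached down to a midbrain library, with means of 266 ± 14.0 CPM and 216 ± 6.68 CPM (SD, n = 4). On the log2 scale the difference was 0.29 (SE 0.0640, adjusted p 0.00436) in wild type and 0.30 (SE 0.0643, adjusted p 0.00300) in the knockout libraries, with edgeR's quasi-likelihood test. These values stand for 1.22-fold (95% interval 1.11 to 1.34) and 1.24-fold (1.12 to 1.36). Without wild-type forebrain replicate 1 the wild-type value was 0.21 with an adjusted p of 0.0626, in a range of 4.38e-05 to 1.00 over the alternatives. Without hs654 knockout replicate 2 the adjusted p in the knockout libraries was 0.0486.

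Yy1 measured 153 and 161 CPM in wild-type midbrain and 162 and 162 CPM in hs654 knockout midbrain. Wild-type forebrain gave 169.9 and 174 CPM, and forebrain of the hs267-853 knockout 183 and 179 CPM. Its forebrain libraries were also all above its midbrain libraries, but it did not pass the test: the log2 fold change was 0.13 (95% interval 0.0071 to 0.25, adjusted p 0.106) in wild type and 0.16 (0.034 to 0.28, adjusted p 0.0547) in the knockout libraries, with edgeR's quasi-likelihood test. Libraries of the 2 tissues did not overlap for 4 of the 10 genes, Ctcf, Ldb1, Yy1 and Stag1, all higher in forebrain. Over all genes tested this held for 40.9%, and 20.6% were higher in forebrain.

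Of the cohesin ring, Smc3 measured 269.9 and 257 CPM in wild-type midbrain, 242 and 243 CPM in hs654 knockout midbrain, 265 and 284 CPM in wild-type forebrain, and 269.9 and 274 CPM in hs267-853 knockout forebrain. Smc1a, its partner, measured 307 and 302, then 279 and 274, then 286 and 311, and 308 and 297 CPM in the same order. Both genes were lowest in hs654 knockout midbrain, and their wild-type tissues overlapped. The wild-type log2 fold changes were 0.06 (95% interval -0.064 to 0.18) for Smc3 and -0.03 (-0.15 to 0.09) for Smc1a, neither past the threshold. In the knockout libraries Smc3 was higher in forebrain by 0.17 (SE 0.0561, adjusted p 0.0418) and Smc1a by 0.13 (SE 0.0560, adjusted p 0.0992), with edgeR's quasi-likelihood test.

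Rad21, the subunit that closes the ring, measured 420 and 423 CPM in wild-type midbrain and 422 and 423 CPM in wild-type forebrain. It measured 403 and 386 CPM in hs654 knockout midbrain and 416 and 418 CPM in hs267-853 knockout forebrain. The wild-type tissues were level, with a log2 fold change of 0.0028 whose interval, -0.10 to 0.11, stands for a change between -6.98% and 7.92%. The value in the knockout libraries was 0.08 (SE 0.0497, adjusted p 0.250 with edgeR's quasi-likelihood test).

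The accessory subunits are alternative members of the ring, and Stag1 measured 141 and 141 CPM in wild-type midbrain, 143 and 127 CPM in hs654 knockout midbrain, 149.8 and 149.9 CPM in wild-type forebrain and 147 and 143 CPM in hs267-853 knockout forebrain. Its tissue differences, 0.09 (SE 0.0660) in wild type and 0.11 (SE 0.0667) in the knockout libraries, did not pass the test. Stag2 measured 236 and 214 CPM in wild-type midbrain, 207 and 205 CPM in hs654 knockout midbrain, 237 and 253 CPM in wild-type forebrain and 244 and 228 CPM in hs267-853 knockout forebrain. Its log2 fold change was 0.12 (SE 0.0640, adjusted p 0.179) in wild type and 0.19 (SE 0.0646, adjusted p 0.0403) in the knockout libraries, with edgeR's quasi-likelihood test.

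The calls of Smc3 and Stag2 in the knockout libraries held in 6 and 9 of 17 alternatives. Both were lost with RLE scaling (adjusted p 0.0650 and 0.0590), in DESeq2 (0.102 and 0.0820), with a mean of at least 50 counts (0.0956 and 0.0801), with the 4 libraries fitted alone (0.0650 and 0.0524), without hs654 knockout replicate 1 (0.251 and 0.188) and without hs654 knockout replicate 2 (0.157 and 0.178), in ranges of 0.0411 to 1.00 and 0.0167 to 1.00. Stag2 was also lost without hs267-853 knockout replicate 1 (0.149), and Smc3 without hs267-853 knockout replicate 2 (0.0843), without wild-type midbrain replicate 1 (0.0569) and with no filter (0.0509). Whether the tissue difference itself differed between the wild-type and the knockout libraries was tested as an interaction, and none of the 10 genes passed (0 of 10, where 0.00650% of all genes passed, and 0 at an unadjusted p under 0.05, where 4.02% of all genes were). The values closest to it were 0.16 (SE 0.0790, adjusted p 0.996) for Smc1a and 0.11 (SE 0.0791, adjusted p 0.996) for Smc3.

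Nipbl, the loader, was the steadiest gene. It measured 244 and 237 CPM in wild-type midbrain, 232 and 227 CPM in hs654 knockout midbrain, 229 and 242 CPM in wild-type forebrain and 230.3 and 240.5 CPM in hs267-853 knockout forebrain. The tissues overlapped, and the log2 fold changes were -0.03 (95% interval -0.15 to 0.09) in wild type and 0.04 (-0.084 to 0.16) in the knockout libraries. Med1 measured 139 and 146 CPM, 156 and 149 CPM, 135 and 148 CPM, and 146 and 140.1 CPM in the same order of groups. Its values were -0.0090 (-0.15 to 0.13) and -0.09 (-0.24 to 0.05), and the sign of the first turned without wild-type midbrain replicate 2 (0.03) or wild-type forebrain replicate 1 (0.06).

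Markers of cell types differed between the 2 tissues, and in bulk tissue fewer cells of a type and less RNA per cell cannot be told apart. All 9 neuronal markers were lower in forebrain, past the threshold in wild type and in the knockout libraries, and their summed level was 1537 to 2185 CPM in the forebrain and 3626 to 4093 CPM in the midbrain libraries. Of 12 proliferation markers, 10 were higher in wild-type forebrain and 11 in knockout forebrain, with sums of 4340 to 4671 CPM in forebrain and 3610 to 3918 CPM in midbrain. Of 9 neural progenitor markers, 3 were higher and 4 lower in forebrain in each comparison. Of 8 mesenchymal markers, 4 were higher in wild-type and 2 in knockout forebrain, and their sums overlapped, at 1250 to 2202 CPM in forebrain and 1403 to 1939 CPM in midbrain. All 8 endothelial markers had positive values in wild type, where 2 were called, and 5 of 8 in the knockout libraries, where 1 was. Their sums did not overlap, at 301 to 310 CPM in forebrain and 236 to 294 CPM in midbrain. Of 11 erythroid markers, 0 passed in wild type and 2 were higher in knockout forebrain, with overlapping sums of 4159 to 4857 CPM in forebrain and 3382 to 6814 CPM in midbrain. No marker of these 6 lists was at 0 in a group. Reads in no annotated feature also separated the tissues, at 55.4% to 56.3% in the forebrain and 57.2% to 58.9% in the midbrain libraries. Their part in the differences of Ctcf, Ldb1, Smc3 and Stag2 was not tested.

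Ratios of counts between 2 genes of the same library do not depend on scaling, and a change of such a ratio needs no gene length. The Stag1 to Stag2 ratio ran from 0.593 to 0.689 over the 8 libraries and overlapped between the tissues, at 0.615 ± 0.0191 in forebrain and 0.641 ± 0.0404 in midbrain (SD, n = 4). The Smc1a to Smc3 ratio kept within 1.08 to 1.17. The Nipbl to Smc3 ratio was 0.853 to 0.877 in the 4 forebrain libraries and 0.904 to 0.961 in the 4 midbrain libraries, without overlap. It was 7.20% lower in forebrain (exact two-sided permutation test, p = 0.0286, the smallest that 4 against 4 allows). After adjustment over the 5 ratios tested the p of this test was 0.143, which is not past the threshold. A single ratio at the smallest p could not have passed, so the adjusted value decides nothing here. How often other pairs of genes separate the tissues was not counted. The 4 libraries of a tissue mixed wild type and knockout, here and in the SDs, and the test did not separate the genotypes. The other 4 ratios had exact permutation p of 0.0857 or more.

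The Ctcf to Smc3 ratio set 1 group apart. It was 0.690 and 0.707 in wild-type midbrain, below the other 6 libraries, which ran from 0.777 to 0.823. In hs654 knockout midbrain it was 0.816 and 0.793, in the range of the forebrain libraries. Wild-type midbrain combined the lowest Ctcf of the 4 groups with Smc3 above that of the hs654 knockout. Between 2 and 2 libraries no exact test can pass the threshold, and the separation was seen after the values were known.

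**Figure D4:**
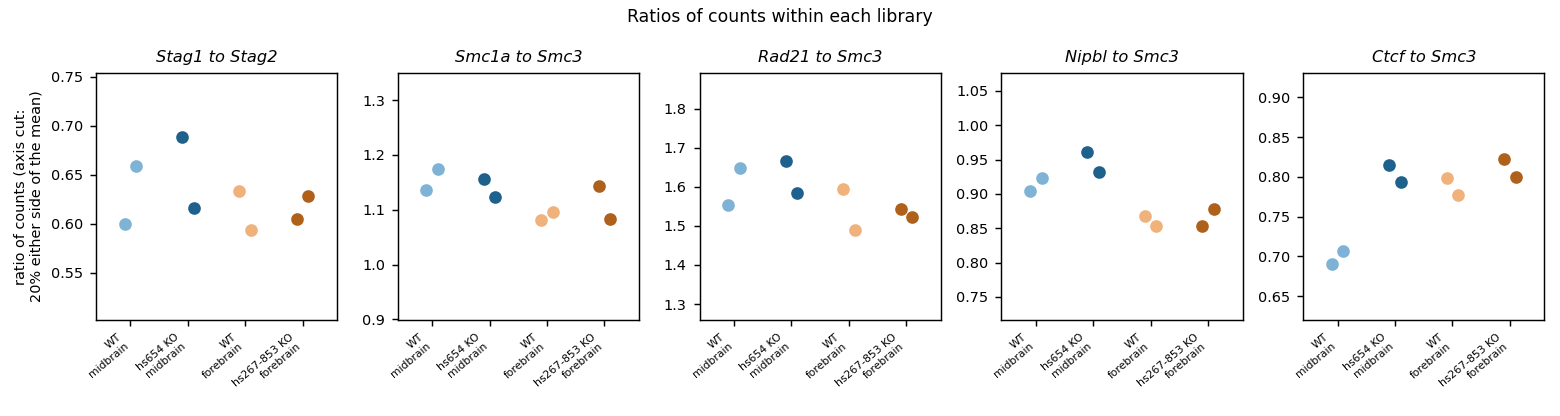
Ratio of the counts of 2 genes within each library (vertical axes, cut to 20% either side of the mean), with 1 point per library in the 4 groups. Nipbl to Smc3 is lower in all forebrain libraries, and Ctcf to Smc3 is lowest in wild-type midbrain.

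The knockouts were compared with the same wild-type libraries that serve the wild-type tissue comparison. In the hs654 knockout, which asks what midbrain expresses when this enhancer is absent, none of the 10 genes passed (0 of 10, against 0 of 15383 genes, 0%, with edgeR's quasi-likelihood test). At an unadjusted p under 0.05 there was 1 of the 10, Smc1a, against 3.96% of all genes, and DESeq2 called 0 of the 10. The cohesin genes were all on the lower side. The log2 fold change was -0.14 (95% interval -0.26 to -0.02) for Smc1a, -0.12 (-0.24 to 0.0027) for Smc3, -0.12 (-0.26 to 0.02) for Stag2, -0.10 (-0.20 to 0.01) for Rad21, -0.07 (-0.19 to 0.05) for Nipbl and -0.07 (-0.21 to 0.08) for Stag1. Without hs654 knockout replicate 2 the value for Stag1 turned to 0.02. Ctcf, Med1, Yy1 and Ldb1 had positive values of 0.04 to 0.10. The adjusted p was 0.992 for all 10 genes.

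The hs654 and wild-type midbrain libraries did not overlap for 8 of the 10 genes, with the knockout below for 5 (Rad21, Smc1a, Smc3, Stag2 and Nipbl) and above for 3 (Ctcf, Yy1 and Med1). Over all genes tested this held for 36.7%, and 18.8% were below. The genes were measured in the same 4 libraries, so they are not independent of each other. Markers of proliferation were also on the lower side in the knockout, 11 of 12, with sums of 3610 and 3659 CPM against 3902 and 3918 CPM and 0 past the threshold, and erythroid markers, 10 of 11, with sums of 3382 and 3843 CPM against 3627 and 6814 CPM. On the higher side were 9 of 9 neuronal markers, with sums of 3976 and 4093 CPM against 3626 and 3784 CPM, 8 of 8 mesenchymal markers, with 1771 and 1901 CPM against 1403 and 1939 CPM, and 7 of 8 endothelial markers, with 285 and 294 CPM against 236 and 283 CPM. None of these markers passed the threshold, and no gene of the 15383 did. At an unadjusted p under 0.05 with edgeR's quasi-likelihood test were 4 of 12 proliferation, 4 of 11 erythroid and 1 of 8 endothelial markers. For the 9 neuronal and 8 mesenchymal markers the count was 0, and over all genes tested the share was 3.96%. Their part in these values was not tested. For the X-linked genes, hs654 replicate 2, with almost no Xist, had 274 CPM of Smc1a and 205 CPM of Stag2, and replicate 1, with 1808 CPM of Xist, had 279 and 207 CPM.

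In the hs267-853 knockout, the same question in forebrain, 0 of the 10 genes passed with edgeR's quasi-likelihood test and 0 had an unadjusted p under 0.05, where 0.0130% and 4.78% of all genes did. DESeq2 also called 0 of the 10. The log2 fold changes ran from -0.05 for Stag2 to 0.08 for Yy1, with a median of 0.0083 beside 0.0078 over all genes, and adjusted p from 0.984 to 1.00. The 95% intervals of all 10 genes included 0 and lay between -0.19 and 0.20, which stands for changes of -12.4% to 14.7%. Knockout and wild-type libraries did not overlap for 3 of 10 genes, Rad21 and Stag1 with the knockout lower and Yy1 with it higher, as for 31.1% of all genes. Signs of values this small turned when 1 library was left out for Smc1a, Smc3, Nipbl, Ldb1 and Med1, for example to -0.02 for Ldb1 without wild-type forebrain replicate 2. All 8 mesenchymal markers had negative values, with sums of 1250 and 1923 CPM against 2202 and 1755 CPM. All 4 Y-linked genes had positive values, with sums of 81.8 and 141 CPM against 0 and 62.5 CPM. Of these, 3 mesenchymal and 4 Y-linked genes had an unadjusted p under 0.05, and none passed the threshold. Positive were also 8 of 9 neural progenitor and 8 of 9 neuronal markers, and negative 10 of 12 proliferation markers. Their part in the values of the 10 genes was not tested.

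The profiles of the 10 genes over the libraries were compared by the root mean square distance between log2 CPM values centred on each gene's mean. Among themselves, Rad21 and Nipbl were nearest (0.036), followed by Smc1a with Rad21 (0.040), Smc3 with Smc1a (0.041), Stag1 with Rad21 (0.044) and Stag2 with Smc3 (0.044). Ctcf and Yy1 were nearest to each other (0.046), and the profile farthest from most members was that of Ldb1. The genes nearest to a member over all 15383 tested were not members: Cnot9 and Ints1 for Ctcf (0.018 and 0.023), Foxk2 and Mrpl17 for Ldb1 (0.021 and 0.032), Virma and Ccp110 for Nipbl (0.019 and 0.020), and Atp5h and Kif23 for Stag2 (0.017 and 0.024). Between 38 and 745 genes lay nearer to a member than the nearest other member did. Genes that hardly vary are near one another by this measure, which rests on 8 libraries.

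The somatic genes have relatives used mainly in germ cells. Smc1b had 1 to 8 counts per library, Rad21l 0 to 3 and Ctcfl, the testis relative of Ctcf, 0 to 2, and none of these 3 was tested. Stag3 was detected, with 63 to 112 counts and 5.16 to 7.54 CPM, and did not differ between groups past the threshold. Yy2, a retrotransposed copy of Yy1, had 90 to 182 counts. Because it shares sequence with Yy1, reads of the 2 genes could have been divided between them or set aside, and their values are uncertain to that extent.

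The list of 89 further genes of these pathways had 84 tested members. In wild type 16 were higher and 6 lower in forebrain, 26.2% in all, and in the knockout libraries 18 higher and 6 lower, 28.6%, close to the 29.6% and 29.4% of all genes. In either knockout 0 of the 84 passed with edgeR's quasi-likelihood test.

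Among regulators of cohesin, Mau2, the partner of Nipbl in the loader, was lower in forebrain. It measured 138 and 128 CPM in wild-type midbrain and 109 and 105 CPM in wild-type forebrain, a log2 fold change of -0.31 (SE 0.0631, adjusted p 0.00248), and -0.29 (SE 0.0634, adjusted p 0.00399) in the knockout libraries, with edgeR's quasi-likelihood test. The difference between the 2 loader genes was not tested. Of 7 genes of cohesin release and maintenance, 1 passed in each comparison. It was Cdca5 (sororin), which protects cohesion after replication, higher in forebrain by 0.47 (SE 0.101) and 0.60 (SE 0.104). Wapl, which opens the ring, had 0.04 (SE 0.0550) and 0.08 (SE 0.0552) and did not pass.

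The list for condensin and the SMC5/6 complex, relatives of cohesin that compact chromosomes and serve repair, had 14 tested genes. It includes Smchd1, an SMC protein of neither complex. In wild type 7 genes were higher in forebrain, Smchd1 among them, and 0 lower. In the knockout libraries 10 were higher and 0 lower, and Smchd1 did not pass. Of all genes tested, 14.3% in wild type and 14.6% in the knockout libraries passed with a higher value in forebrain. The medians of the list were 0.18 and 0.29. Ncaph, a condensin subunit, measured 84.4 and 84.2 CPM in wild-type midbrain and 112 and 117 CPM in wild-type forebrain, with log2 fold changes of 0.44 (SE 0.0641) and 0.35 (SE 0.0649). Ncaph2 of condensin II had 0.30 (SE 0.0571) and 0.36 (SE 0.0576). The proliferation markers above were higher in the same libraries, and their part was not tested.

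The partners and relatives of Ldb1 held the widest tissue differences of these lists. Of 9 genes, 3 were higher and 1 lower in forebrain in each comparison, where 29.6% and 29.4% of all genes tested passed. Lmo2, a LIM-only protein that binds Ldb1, measured 20.7 and 26.4 CPM in wild-type midbrain and 37.9 and 45.4 CPM in wild-type forebrain, and 0.82 (SE 0.131) and 1.10 (SE 0.133) were its log2 fold changes. Lmo3, of the same family, was lower in forebrain by 0.99 (SE 0.193) in wild type, where it fell from 38.8 and 35.0 CPM to 20.2 and 16.9 CPM. Ldb2, the paralog of Ldb1, was higher in wild-type forebrain by 1.05 (SE 0.178, adjusted p 0.000686) and had 0.50 (SE 0.183, adjusted p 0.0552) in the knockout libraries, with edgeR's quasi-likelihood test. Ssbp4, a single-stranded DNA-binding protein of a family that stabilizes Ldb1, was higher by 0.29 (SE 0.0752) and 0.28 (SE 0.0755). Isl1, a LIM-homeodomain factor, had 0.56 (SE 0.204, adjusted p 0.0553) in wild type and was higher in the knockout libraries by 0.96 (SE 0.209, adjusted p 0.00359), with the same test. The summed endothelial markers above were also higher in all 4 forebrain libraries, and their part in these values was not tested.

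Of 25 core Mediator subunits, 5 were higher and 0 lower in wild-type forebrain, and 4 were higher and 1 (Med24) lower in knockout forebrain. Beside this list and those that follow, 29.6% of all genes tested passed in wild type and 29.4% in the knockout libraries. Med9 and Med28 were higher in both, by 0.35 (SE 0.111) and 0.31 (SE 0.0794) in wild type and by 0.35 (SE 0.113) and 0.32 (SE 0.0808) in the knockout libraries. Of the 7 genes of the kinase module, which restrains Mediator, 0 passed in wild type and 1 in the knockout libraries, Med13, at -0.22 (SE 0.0649). Of 12 coactivators and enhancer-modifying enzymes, 3 were lower in wild-type forebrain and 2 in knockout forebrain, and 0 were higher. Kmt2d, a histone H3 methyltransferase of enhancers, had -0.35 (SE 0.0671) in wild type and -0.13 (SE 0.0671, adjusted p 0.161 with edgeR's quasi-likelihood test) in the knockout libraries. Its relative Kmt2c had -0.19 (SE 0.0685) and -0.21 (SE 0.0688), and the coactivator Ncoa3 -0.26 (SE 0.0763) and -0.33 (SE 0.0772). Of 6 tested zinc finger factors tied to looping, Vezf1 was lower in wild-type forebrain by 0.21 (SE 0.0612), and none passed in the knockout libraries.

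**Figure D5:**
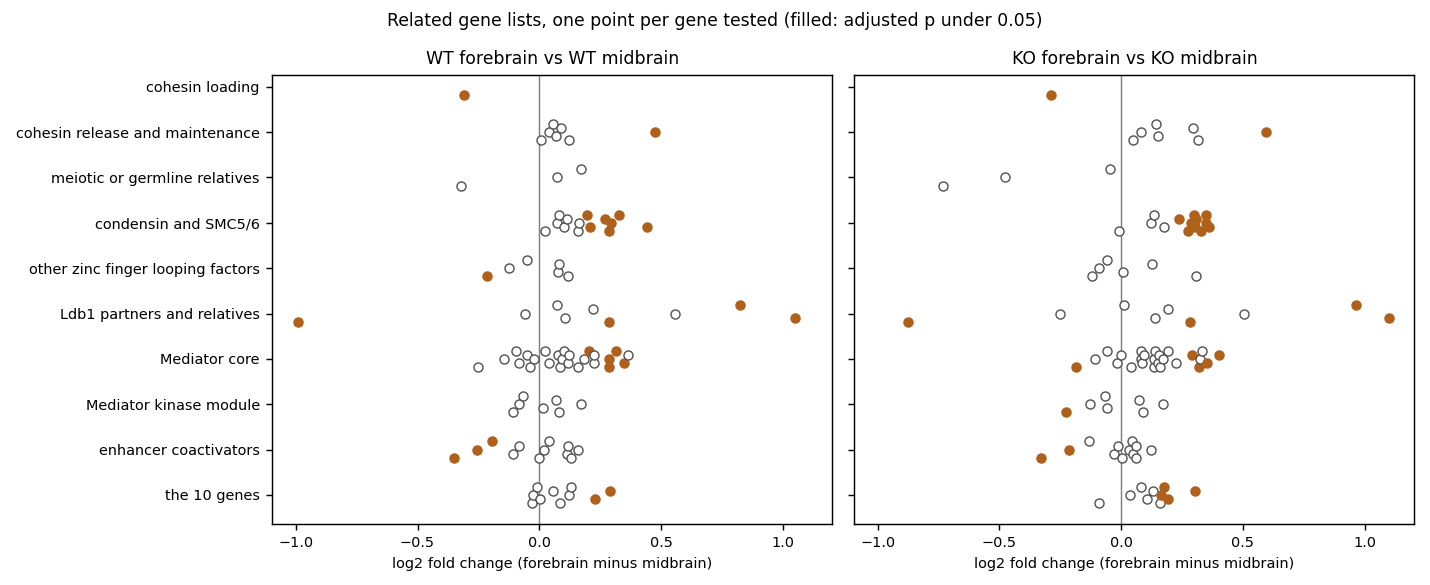
Log2 fold change, forebrain minus midbrain (horizontal axis), of each tested gene in 9 related lists and of the 10 genes, in the wild-type and the knockout libraries; filled orange points passed an adjusted p of 0.05. The filled points of condensin and SMC5/6 lie right of 0, those of the coactivators left of it, and the Ldb1 partners spread widest.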

How the data were processed

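The authors deposited raw counts per gene symbol, with 1 table for each of 8 RNA-seq libraries. STAR, HTSeq, DESeq2 and the build mm10 are named in the submitters' processing notes; annotation, versions and strand setting are not given in the sources used here. The 5 closing rows that name no gene entered neither library sizes nor tests. Reads in no feature held 55.4% to 58.9% and ambiguous reads 0.431% to 0.488% of the counts in genes, no feature and ambiguous positions together.

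From the deposited counts, fold changes were estimated in R 4.3.3 by edgeR 4.0.16, after filterByExpr and TMM (factors 0.978 to 1.01), in a quasi-likelihood fit of 1 mean for each group over all 8 libraries (4 residual and 8.75 prior degrees of freedom), two-sided tests, Benjamini-Hochberg adjustment over 15383 genes and a threshold of 0.05. Each standard error is the fold change over the square root of F, and gives the 95% interval. Log2 CPM used a prior count of 2. Nothing says that the 2 pools of a group came from separate litters, so p-values measure the spread between pools. The counting error in percent covers counting only, while the 95% intervals of fold changes include the spread between pools.

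All 10 genes were named in each comparison, with up to 4 called genes of largest change per related list and the 2 nearest profiles per gene. The genes and lists were chosen with earlier results of these data known. The ratio test (scipy 1.17.1) and the promoter motifs were added after the data were seen. The test per gene was tested on simulated data. Alternatives tried were DESeq2 1.42.0, limma 3.58.1 with voom, scaling by RLE or the upper quartile, no filter or one at a mean of 50 counts, a test against 1.5-fold, a fit of only the 4 libraries compared, a replicate block, and leaving out each library. Promoter sequences are from RefSeq, GRCm38.p6.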

Additional observations from a re-analysis of the deposited data

How the results depend on the processing

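With 2 pools per group, single libraries and settings moved the counts of called genes among the 10. In wild type the count was 2 and became 0 against a minimum change of 1.5-fold, and 1 to 2 with 1 library left out. In the knockout libraries the count of 4 became 2 with RLE scaling, 1 with a mean of at least 50 counts, 1 in DESeq2, 1 with the 4 libraries alone and 0 against a minimum change of 1.5-fold, and 1 to 4 with 1 library left out; Ldb1 passed in each of these except the last-named test. In both knockout comparisons and in the interaction the count was 0 under every alternative run. Replicate numbers did not pair the samples (correlations of deviations -0.025 to 0.067), and with them as a block the counts were 2, 3, 0, 0 and 0, with Smc3 lost in the knockout libraries (adjusted p 0.0519).

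Signs turned only for values not past the threshold. For Rad21 in wild type, upper-quartile scaling gave -0.0053, a mean of at least 50 counts -0.014, and leaving out 1 library -0.0078 to 0.011. Left-out libraries gave, in wild-type tissue, -0.085 to 0.032 for Smc1a, -0.066 to 0.0085 for Nipbl and -0.077 to 0.060 for Med1. In the hs654 knockout they gave -0.15 to 0.017 for Stag1. In the hs267-853 knockout they gave -0.037 to 0.081 for Smc1a, -0.060 to 0.040 for Smc3, -0.039 to 0.037 for Nipbl, -0.023 to 0.14 for Ldb1 and -0.050 to 0.089 for Med1. For the interaction they gave -0.061 to 0.092 for Stag1, -0.0044 to 0.14 for Stag2, -0.060 to 0.099 for Ldb1 and -0.0089 to 0.062 for Yy1, and a mean of at least 50 counts gave -0.0036 for Ldb1. The causes were not tested. The order of levels per length was not computed, because the tables used here give no transcript lengths. Counting error was at most 2.94% of a value, and the effect of depth was not tested.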
